A study of Mus musculus with 6 samples.

Results

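The nuclear genes of the mitochondrial respiratory chain and ATP synthase, with the genes of the mitochondrial DNA that code for the rest of the same complexes, were followed in sorted mouse skeletal stem cells after a partial tendon-to-bone injury. The nuclear members were taken by symbol: the Nduf genes of complex I, the 4 Sdh genes of complex II, the Uqcr genes of complex III, the Cox4 to Cox8 genes of complex IV and the Atp5 genes of complex V. Of the 26130 genes deposited, 83 matched, 36 in complex I, 4 in complex II, 8 in complex III, 18 in complex IV and 17 in complex V. The name rule also covers symbols beginning with mt-, of which no protein gene was found. The 13 protein genes of mitochondrial DNA stand in the table under RefSeq symbols (ND1 to ND6, ND4L, CYTB, COX1 to COX3, ATP6 and ATP8), and they were added once this had been seen. Genes were assigned to complexes by name, so Ndufa4, which also is known as a subunit of complex IV, was counted with complex I.

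The respiratory chain passes electrons from NADH and succinate to oxygen through complexes I to IV of the inner mitochondrial membrane, and complex V uses the resulting proton gradient to make ATP. Most subunits are encoded in the nucleus, translated in the cytosol and imported, whereas a small core of complexes I, III, IV and V is transcribed from mitochondrial DNA, and complex II is wholly nuclear. Skeletal stem cells and growth plate chondrocytes are known for strong use of glycolysis, and respiration is known to gain weight as osteoblasts mature.

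The cells were labelled mouse skeletal stem cells (mSSCs) of strain C57BL/6, sorted from the Achilles tendon-to-bone interface at day 7, and the groups were injured (n = 3), sham control (n = 2) and uninjured (n = 1). The treatment protocol names the same partial injury for every library, so the group was read from the title and the treatment label. The uninjured library carries a sham number in its description, and a further comparison therefore joined it to the sham controls. Nothing used here states age, sex, the sham procedure, the surface markers of the sort or whether a library is 1 animal or a pool, so p-values measure only the spread between these libraries, which may be technical. cDNA was amplified from 150 pg of total RNA without molecular identifiers.

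Totals were 46250870 to 51089267 counts in injured, 38382144 and 40483028 in sham control and 37506188 in uninjured libraries. All 10 markers of skeletal stem cells and stroma had counts in every library. Blood markers divided the libraries within groups. The 12 macrophage markers summed to 4870, 1230 and 37.8 CPM (counts scaled to library size) in injured libraries 1 to 3, to 2900 and 47.3 in sham control 1 and 2 and to 180 in uninjured, with a fold change against sham control above 0 for 11 of 12. The 10 neutrophil markers summed to 6790, 894 and 95.3 CPM in injured, to 11000 and 558 in sham control and to 908 in uninjured, with 0 of 10 above 0 (median log2 fold change -1.38). The 8 erythroid markers in the table summed to 6080, 594 and 7.6 CPM in injured, to 38800 and 1.19 in sham control and to 127 in uninjured, with 1 of 8 above 0 (median -3.32). The 10 endothelial markers summed to 333, 157 and 76.4 CPM in injured, to 1830 and 0.746 in sham control and to 798 in uninjured. Their folds were below 0 for 10 of 10 in both comparisons, with medians of -2.41 against sham control and -2.24 against all non-injured libraries, and sham control 2 was lower than every injured library. Ribosomal RNA took 14.7%, 4.74% and 2.89% of counts in injured, 15.0% and 5.32% in sham control and 4.37% in uninjured. The part of these values in the results below was not tested, and the medians of the nuclear and the mitochondrially encoded genes are also given without injured 1 and sham control 1, the library of each group richest in ribosomal RNA and in these blood markers.

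Taken as a whole, respiratory chain genes took a larger share of the injured libraries on average, but the spread within groups was as large as the difference. The 83 nuclear genes made up 1.13%, 1.10% and 0.679% of counts in injured 1 to 3, 0.871% and 0.624% in sham control 1 and 2 and 0.591% in uninjured. The injured mean was 0.970% ± 0.253 (SD, n = 3) and the sham control mean 0.748% ± 0.175 (SD, n = 2). Injured 3 lay between the sham libraries, so the groups overlapped. In bulk RNA of this kind fewer cells of a type and less RNA per cell cannot be told apart. The 13 mitochondrially encoded genes made up 1.58%, 1.72% and 0.777% in injured, 1.217% and 0.826% in sham control 1 and 2 and 0.885% in uninjured, and here injured 3 was the lowest of the 6. The 95% Wilson intervals of the uninjured shares were 0.5890% to 0.5939% and 0.8818% to 0.8878%, and they cover counting error only.

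**Figure D1:**
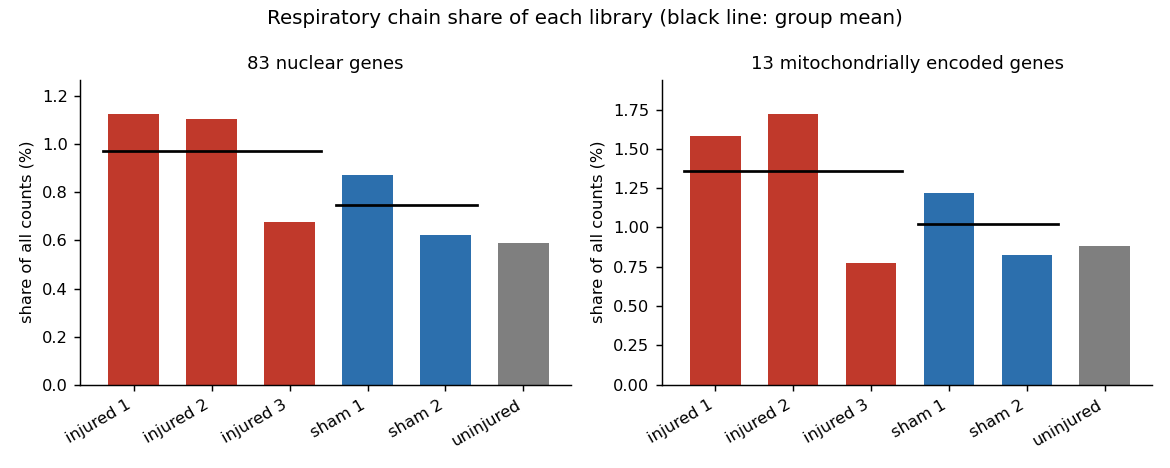
Bars give the percentage of all counts in each library taken by the 83 nuclear genes (left) and the 13 mitochondrially encoded genes (right), and black lines give group means. Injured 1 and 2 are the highest bars in both panels, while injured 3 (0.679% and 0.777%) lies below sham control 1 (0.871% and 1.217%).

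Nuclear and mitochondrial transcripts kept a similar balance. Mitochondrially encoded counts were 1.40, 1.56 and 1.14 times the nuclear counts in injured, 1.40 and 1.32 times in sham control and 1.5 times in uninjured. The means were 1.37 ± 0.209 (SD, n = 3) in injured and 1.36 ± 0.051 (SD, n = 2) in sham control.

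Gene by gene, the same libraries stood out. Of the 80 nuclear genes that passed the filter on low counts, 64 had their highest CPM in injured 1, against 21.3% of all genes tested, and 53 had their lowest in uninjured, against 16.2% of all genes. Injured 1 exceeded injured 3 for 78 of the 80, by a median of 1.10 in log2(CPM + 1), and it exceeded sham control 1 by a median of 0.55 and sham control 2 by 0.85. Injured 2 exceeded sham control 2 by a median of 0.39. Injured 3 was below both sham libraries, with medians of -0.44 against sham control 1 and -0.25 against sham control 2. The gap between injured 1 and injured 3 was therefore wider than any gap between an injured and a sham library. The mean level over the 80 genes was 6.22 ± 0.498 log2(CPM + 1) in injured (SD, n = 3) and 6.02 ± 0.204 in sham control (SD, n = 2), with 5.39 in uninjured.

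**Figure D2:**
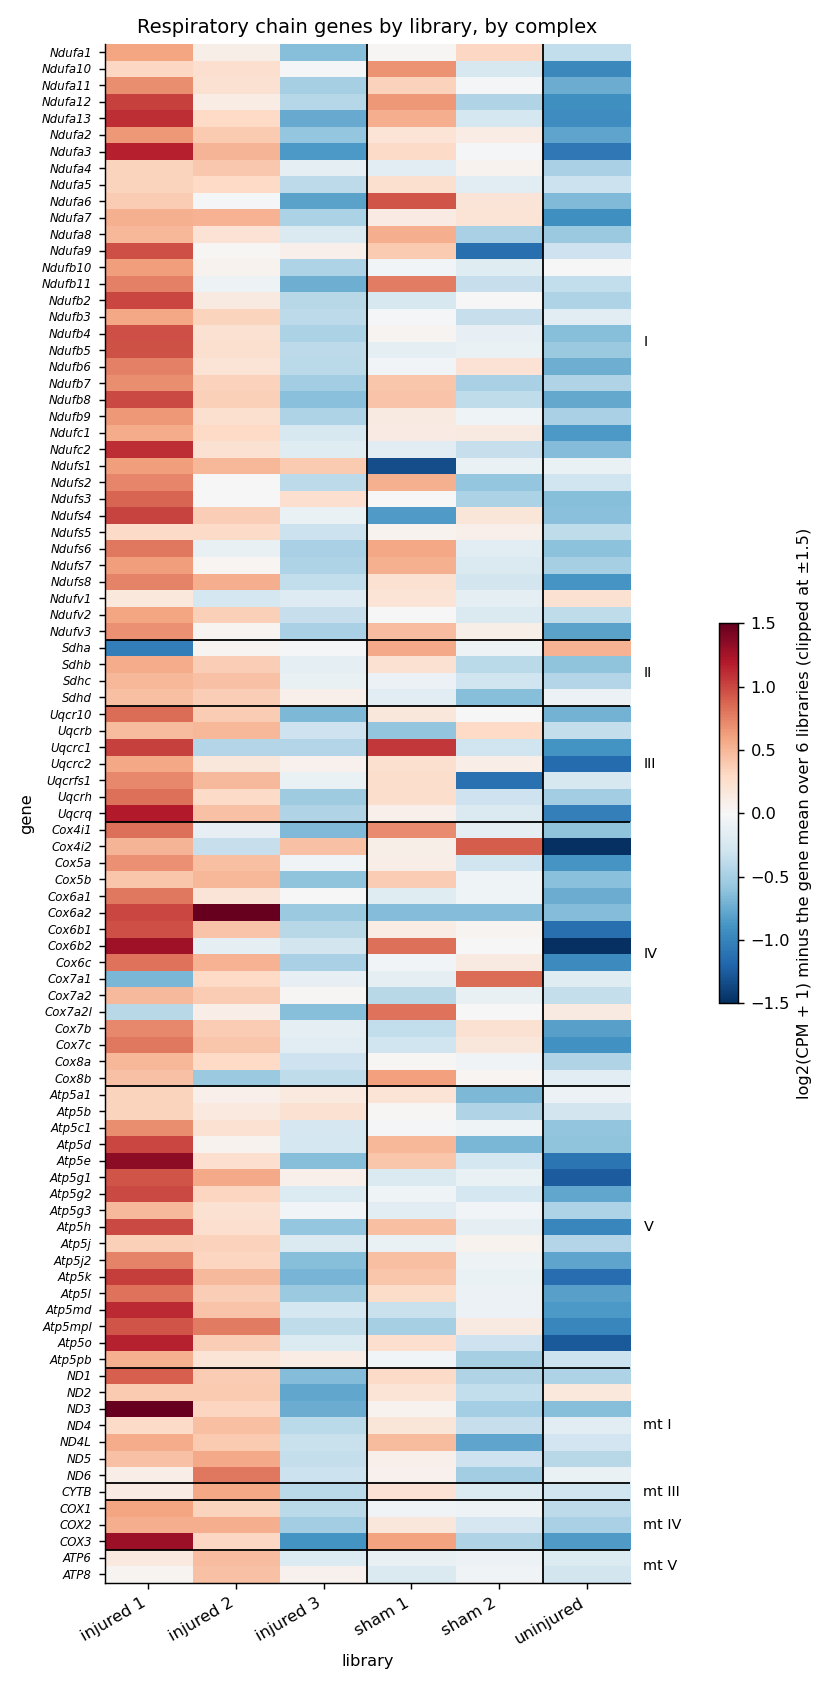
Each row is a gene that passed the filter, grouped by complex (mt: encoded in mitochondrial DNA), each column a library, and colour gives log2(CPM + 1) minus the mean of the gene over the 6 libraries. The injured 1 column is above the mean for most rows, injured 3 and uninjured are mostly below it, and Sdha and Cox7a2l run against their neighbours.

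The first comparison asked how injured cells differ from sham controls. In the edgeR quasi-likelihood fit 0 nuclear genes had an adjusted p under 0.05 (smallest adjusted p = 0.865), where 0% of 16752 genes did, and 0 had an unadjusted p under 0.05, where 2.44% of all genes did so in the higher and 2.2% in the lower direction. DESeq2 called 0 of them (2.52% of all genes), and limma-voom 0. The fold change was above 0 for 64 of 80 and below 0 for 16, with a median log2 fold change of 0.28, beside 0.09 over all genes tested. By complex the medians were 0.17 for I, 0.42 for II, 0.30 for III, 0.28 for IV and 0.36 for V. For 8 of the 80 nuclear genes the lowest injured value exceeded the highest sham value, where 11.9% of all genes did so, and the reverse held for 0, where it held for 9.12%.

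The direction depended on single libraries. Without injured 1 the median turned to -0.06, with 35 of 80 genes above 0 and a median of all genes of 0.04. Without sham control 2 it was 0.14, and 54 of 80 genes were above 0 while the median of all genes was 0.30. Without injured 3 it was 0.49 and without sham control 1 it was 0.43. Without injured 1 and sham control 1 together it was 0.09, below the median of all genes in that fit (0.20), and 53 of 80 genes were above 0. With scaling by total counts only, the median of all genes was 0.23, and the nuclear genes stood 0.17 above it, against 0.20 with the scaling used here. With limma-voom the nuclear median was 0.21 and that of all genes 0.16, so the nuclear genes stood 0.05 above it.

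**Figure D3:**
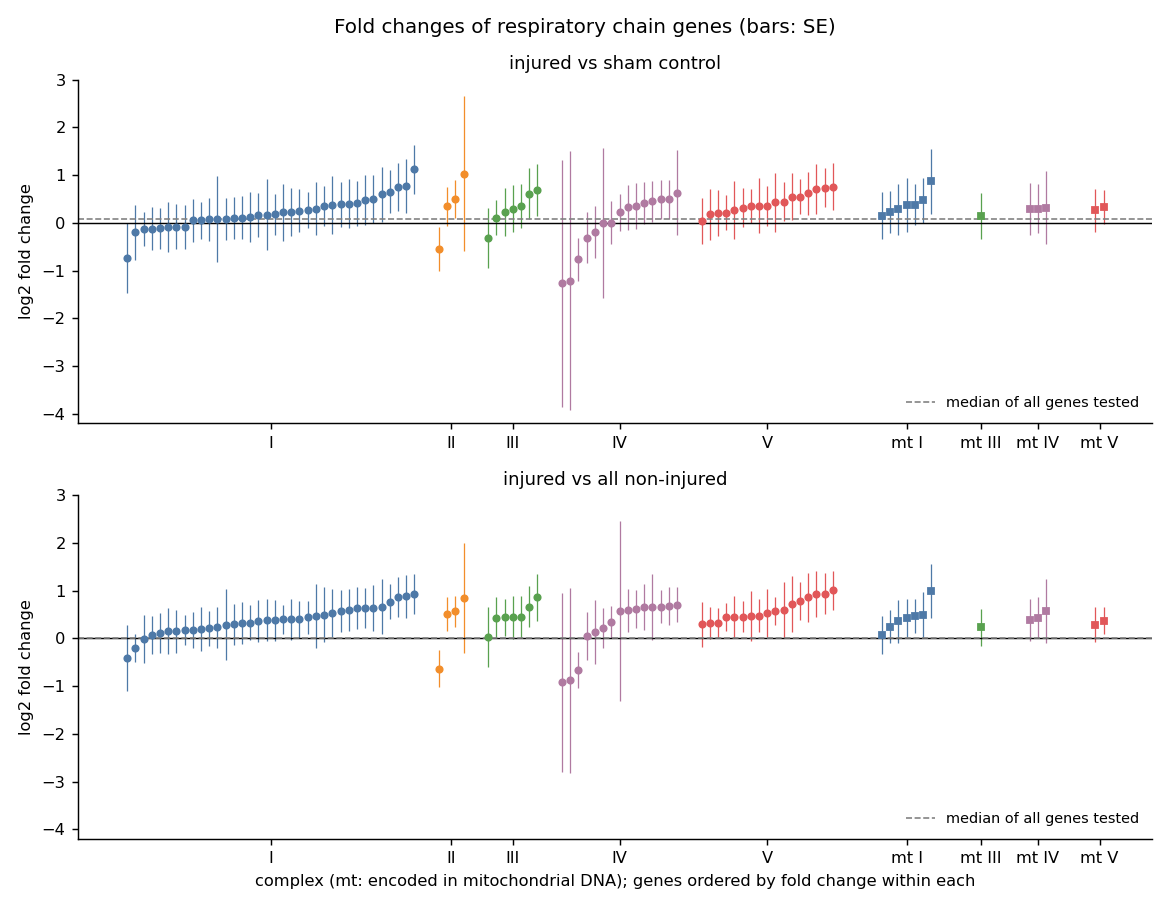
Points are log2 fold changes of single genes with their SE, for injured against sham control (top) and against all non-injured libraries (bottom), ordered within each complex, and the dashed line is the median of all genes tested. Cox6a2, with no count outside injured libraries, is left out. Most points lie above 0 in both panels, and 0 genes passed the adjusted threshold by edgeR.

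Complex I, the NADH dehydrogenase, had 28 of 36 nuclear genes above 0 (log2 fold changes from -0.74 to 1.12). Ndufs1, which codes for the largest iron-sulphur subunit of the NADH-oxidising arm, stood at 67.5, 61.7 and 57.2 CPM in injured, at 16.65 and 40.5 CPM in sham control and at 40.3 CPM in uninjured. It was the 1 complex I gene with no overlap, and its injured values exceeded the uninjured one as well (log2 fold change 1.12 ± 0.51, SE; adjusted p = 0.865 by edgeR). Sham control 1 was the low library here.

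The next genes by p did not separate the groups. Ndufs4, an accessory subunit known from a mouse model of Leigh syndrome, stood at 79.0, 50.1 and 35.9 CPM in injured, at 21.0 and 43.7 in sham control and at 24.5 in uninjured (log2 fold change 0.77 ± 0.56, SE), and its fold was -0.02 without injured 1 and sham control 1. Ndufc2, a membrane-arm subunit, stood at 120.2, 65.2 and 48.7 CPM in injured, at 49.7 and 43.3 in sham control and at 34.8 in uninjured (log2 fold change 0.75 ± 0.50, SE). In both genes injured 3 lay among the sham values. Ndufs3, a core subunit of the matrix arm, had a fold of 0.65 ± 0.45 (SE), but 55.0% of its 31-base words also occur in transcripts of other genes, so its count is uncertain. Ndufa6, an accessory subunit chosen after its values were seen, had the lowest fold of the complex (-0.74 ± 0.74, SE).

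Complex II, succinate dehydrogenase, joins the chain to the citric acid cycle, and its 4 genes did not run together. Sdha, the flavoprotein that oxidises succinate, stood at 68.0, 145 and 139 CPM in injured, at 209 and 133 in sham control and at 202 in uninjured. Injured 1, the highest library for most nuclear genes, was the lowest for Sdha, and injured 2 and 3 lay just above sham control 2. The log2 fold change was -0.54 ± 0.46 (SE; edgeR adjusted p = 0.875), and 0.09 without injured 1 and sham control 1.

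Sdhb, the iron-sulphur subunit next to it in the path of the electrons, stood at 164, 143 and 101 CPM in injured, at 130.3 and 83.4 in sham control and at 72.6 in uninjured (log2 fold change 0.35 ± 0.41, SE). Sdhc, a membrane anchor, stood at 92.2, 88.8 and 60.2 CPM in injured, at 61.4 and 52.6 in sham control and at 47.6 in uninjured (log2 fold change 0.50 ± 0.40, SE). For both, injured 1 and 2 were above every sham and uninjured value and injured 3 was not. Sdhd, the other anchor, was low throughout, at 3.30, 3.09 and 2.31 CPM in injured, with 1.81 and 1.02 in sham control and 1.97 in uninjured, and its groups did not overlap (log2 fold change 1.03 ± 1.63, SE; edgeR adjusted p = 0.969). Per kilobase of transcript the median over the 6 libraries was 101 CPM for Sdhb, 48.9 for Sdha, 19.2 for Sdhc and 1.74 for Sdhd, although the subunits are present once each in the complex.

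Within a library the ratio of Sdha to Sdhb CPM was 0.415, 1.01 and 1.37 in injured 1 to 3, 1.60 in each sham library and 2.78 in uninjured. All injured ratios were below all others. This ratio was chosen after its values were seen, so no test is given. Sdha and Sdhd are shown with the 250 bases before their RefSeq start (GRCm38.p6, 5′ to 3′ on the gene's strand), since they had opposite signs of fold within 1 complex. Capitals mark matches to the motif of nuclear respiratory factor 1 (NRF1), a regulator of many respiratory chain genes, written GCGCA, any base, GCGC and searched on both strands.
Sdha, chr13:74350241-74350490, minus strand: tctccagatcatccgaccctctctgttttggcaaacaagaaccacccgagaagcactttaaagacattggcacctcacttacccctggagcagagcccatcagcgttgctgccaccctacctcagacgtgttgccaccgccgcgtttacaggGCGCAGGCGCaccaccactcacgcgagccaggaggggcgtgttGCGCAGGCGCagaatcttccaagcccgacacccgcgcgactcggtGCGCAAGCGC
Sdhd, chr9:50603850-50604099, minus strand: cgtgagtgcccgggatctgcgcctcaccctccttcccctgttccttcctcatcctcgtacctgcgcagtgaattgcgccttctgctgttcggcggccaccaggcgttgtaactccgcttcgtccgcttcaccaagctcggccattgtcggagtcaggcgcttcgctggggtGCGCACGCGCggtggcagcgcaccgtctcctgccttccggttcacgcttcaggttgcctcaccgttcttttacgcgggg
Both sequences hold the motif, Sdha at more than 1 place. The folds of Sdha and Sdhd are uncertain (-0.54 ± 0.46 and 1.03 ± 1.63, SE), and the part of the motif in them was not tested.

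**Figure D4:**
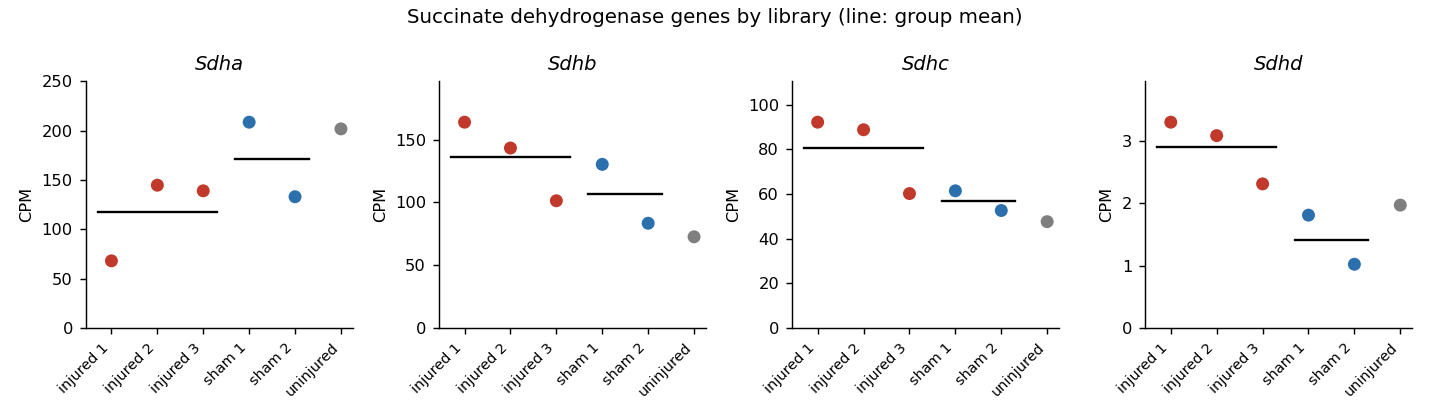
Points give CPM of Sdha, Sdhb, Sdhc and Sdhd in each library, and lines give group means. Injured 1 is lowest for Sdha (68.0 CPM) and highest for Sdhb (164 CPM), and Sdhd stays at or below 3.30 CPM.

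Complex III, which passes electrons from ubiquinol to cytochrome c, had 6 of 7 tested genes above 0, and 0 of them separated the groups. Uqcrfs1, the Rieske iron-sulphur protein, stood at 112, 94.7 and 62.9 CPM in injured, at 81.1 and 30.5 in sham control and at 57.1 in uninjured (log2 fold change 0.69 ± 0.54, SE). Uqcrq, a small subunit of the membrane part, stood at 281, 168 and 89.6 CPM in injured, at 130.1 and 105 in sham control and at 59.7 in uninjured (log2 fold change 0.61 ± 0.53, SE). In both, injured 3 lay between or below the sham libraries. Uqcrh, the hinge protein, had a fold of 0.30 ± 0.50 (SE) and Uqcrb one of 0.35 ± 0.46 (SE), and Uqcrb shares 58.2% of its 31-base words with other genes and stood at -0.14 without injured 1 and sham control 1. Uqcr11 was listed at 0 in all 6 libraries.

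Complex IV, cytochrome c oxidase, has several subunits that exist as tissue forms, and the forms expressed here were mostly the widespread ones. Of 18 nuclear genes 16 were tested, 10 above 0 and 6 below, and Cox7b2 and Cox8c, known mainly from testis, were at 0 in all libraries. Cox4i1, the widespread form of subunit 4, stood at 552, 284 and 195 CPM in injured, at 507 and 279 in sham control and at 204 in uninjured (log2 fold change -0.19 ± 0.55, SE). Cox4i2, a form known from lung and from oxygen-regulated expression, stood at 35.9, 19.5 and 34.4 CPM in injured, at 26.6 and 47.6 in sham control and at 7.57 in uninjured (log2 fold change -0.31 ± 0.54, SE). Its share of subunit 4 per kilobase was 6.33%, 6.64% and 15.5% in injured, 5.18% and 15.1% in sham control and 3.71% in uninjured. The 2 libraries at about 15% were injured 3 and sham control 2, those lowest in the summed macrophage and erythroid markers. Uninjured, next in both sums (180 and 127 CPM), had the smallest share, and the relation was not tested.

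In subunit 6a both forms were without overlap between injured and sham control. Cox6a1, the widespread form, stood at 460, 305 and 267 CPM in injured, at 234 and 255 in sham control and at 158 in uninjured (log2 fold change 0.49 ± 0.40, SE; edgeR adjusted p = 0.867). Cox6a2, the form of heart and skeletal muscle, had 95, 207 and 3 counts in injured and 0 in sham control and uninjured. It passed the filter through injured libraries alone, so its lack of overlap is no separate support. Its pooled level in injured was at least 49.1-fold higher than a floor of 3 counts over the 2 sham libraries (0.041 CPM). Injured 1 and 2 (2.15 and 3.42 CPM) carried that level, and injured 3 stood at 0.0642 CPM, close to the floor. DESeq2 called it against all non-injured libraries (adjusted p = 0.0329, with counts in 3 of 3 injured libraries) and not against sham control (adjusted p = 0.187). By edgeR its adjusted p was 0.865 against sham control, and the filter left it out of the edgeR fit against all non-injured libraries. The 18 skeletal muscle markers summed to 104, 104 and 44.5 CPM in injured, to 90.5 and 18.3 in sham control and to 44.3 in uninjured, and 15 of 16 tested had a fold above 0 (median 2.68). Against all non-injured libraries 10 of 11 tested were above 0, with a median of 1.18. Among the markers Ckm, Mb, Myh4, Atp2a1 and Casq1 had no count in either sham library. Mb stood at 3.03, 11.4 and 0.193 CPM in injured 1 to 3, and Myh4 was highest in uninjured (1.36 CPM). Other markers had counts in sham control 1, such as Acta1 (39.8 CPM) and Pygm (31.6 CPM). Pygm had a fold of -1.56 against sham control. The part of muscle RNA in the Cox6a2 counts was not tested.

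Among the other forms only Cox7a2 was without overlap. Cox7a1, the heart and muscle form of subunit 7a, stood at 1.88 CPM or less in every library, and Cox7a2, the widespread form, stood at 11.8, 10.9 and 8.22 CPM in injured, at 5.84 and 7.48 in sham control and at 6.16 in uninjured. The injured libraries were above the rest (log2 fold change 0.63 ± 0.89, SE; edgeR adjusted p = 0.964). Cox7a2l, which codes for a factor of supercomplex assembly, had the opposite sign, with 40.2, 58.1 and 34.4 CPM in injured, with 95.9 and 53.5 in sham control and 59.4 in uninjured (log2 fold change -0.76 ± 0.45, SE; edgeR adjusted p = 0.865). Injured 2 lay above sham control 2, so its groups overlapped. Cox6b1, Cox7b and Cox8a had folds of 0.36, 0.41 and 0.22, with Cox7b at -0.08 without injured 1 and sham control 1, and the testis form Cox6b2 and the muscle form Cox8b stayed at or below 6.70 and 1.24 CPM. Cox5a, a structural subunit, had a fold of 0.49 ± 0.40 (SE), with 47.2% of its 31-base words shared with other genes, as are 23.8% of those of Cox6a1 and 21.4% of those of Cox7a2l.

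The sequence before Cox6a1 is shown because its groups did not overlap in either comparison, which was not particular to members. Wholly above sham control lay 8 of 80 nuclear members, beside 11.9% of all genes. Wholly above all non-injured libraries lay 7 of 79, beside 9.23%. NRF1 matches are in capitals as above.
Cox6a1, chr5:115348959-115349208, minus strand: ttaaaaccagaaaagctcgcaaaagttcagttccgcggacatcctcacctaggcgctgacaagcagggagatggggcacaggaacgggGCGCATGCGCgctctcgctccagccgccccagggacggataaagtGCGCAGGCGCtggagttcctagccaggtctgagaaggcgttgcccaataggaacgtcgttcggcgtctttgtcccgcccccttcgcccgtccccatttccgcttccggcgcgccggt
The first match reads as the motif on both strands, since that stretch is its own reverse complement.

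Against sham control complex V, the ATP synthase, was the complex in which all nuclear genes leaned one way. Against all non-injured libraries complex III did so too, with 7 of 7 tested genes above 0. In complex V 17 of 17 had a fold above 0 against sham control (0.04 to 0.76). Under relative log expression scaling, DESeq2 or limma-voom it was 16 of 17. Without injured 1 it was 11 of 17 and without sham control 2 it was 13 of 17. Without injured 1 and sham control 1 together 17 of 17 were above 0, but their median of 0.18 was below that of all genes in that fit (0.20). Atp5g1, 1 of 3 genes for the same subunit c of the membrane rotor, stood at 254, 196 and 139 CPM in injured, at 113 and 123 in sham control and at 54.9 in uninjured (log2 fold change 0.74 ± 0.40, SE; edgeR adjusted p = 0.865). No other library reached the injured values. Atp5g2 stood at 225, 142 and 97.9 CPM in injured, at 108 and 94.5 in sham control and at 65.8 in uninjured, and Atp5g3 at 249.4, 209 and 173 CPM in injured, at 158 and 173 in sham control and at 129 in uninjured. Injured 3 lay among the sham values in both.

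The 3 genes code for the same mature protein and differ in their targeting sequences. Atp5g1 made up 12.8%, 13.2% and 12.2% of their summed CPM per kilobase in injured, 10.4% and 11.1% in sham control and 7.12% in uninjured, while Atp5g3 made up the largest part in every library (46.2% to 61.9%). The Atp5g1 shares did not overlap between groups, and they too were seen before they were chosen, so no test is given. Atp5g1 shares 14.1% of its 31-base words with other genes and Atp5g2 40.2%, so these shares are uncertain.

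Atp5b and Atp5pb were the other genes of complex V without overlap. Atp5b, the catalytic beta subunit, chosen after its values were seen, stood at 1044, 921 and 974 CPM in injured, at 839 and 608 in sham control and at 687 in uninjured (log2 fold change 0.44 ± 0.41, SE; edgeR adjusted p = 0.897). With a median of 459 CPM per kilobase it was the most abundant nuclear gene of the chain, next to Cox6a1 with 457, and these neighbours in the order did not differ beyond their spread over libraries. Atp5pb, the stator subunit b, stood at 162, 129 and 120.0 CPM in injured, at 109 and 78.8 in sham control and at 89.2 in uninjured (log2 fold change 0.55 ± 0.37, SE; edgeR adjusted p = 0.865), and 45.9% of its 31-base words are shared. Atp5md, which helps synthase dimers form, had the highest fold of the complex (0.76 ± 0.50, SE), with injured 3 among the sham values. The 250 bases before Atp5g1 and Atp5b are given for comparison with the complex II and IV genes.
Atp5g1, chr11:96075632-96075881, minus strand: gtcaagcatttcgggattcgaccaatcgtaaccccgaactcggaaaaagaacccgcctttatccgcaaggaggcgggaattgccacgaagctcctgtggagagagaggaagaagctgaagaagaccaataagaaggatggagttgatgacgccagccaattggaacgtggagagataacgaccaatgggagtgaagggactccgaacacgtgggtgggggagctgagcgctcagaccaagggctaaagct
Atp5b, chr10:128083057-128083306, plus strand: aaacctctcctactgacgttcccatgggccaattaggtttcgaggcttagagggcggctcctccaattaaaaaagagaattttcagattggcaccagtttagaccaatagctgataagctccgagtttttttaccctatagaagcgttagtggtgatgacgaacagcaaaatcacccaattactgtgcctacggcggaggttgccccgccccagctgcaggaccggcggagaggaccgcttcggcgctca
Neither stretch holds the NRF1 motif, and the part of the motif in the folds was not tested.

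Over all nuclear members, 68 of 83 matched a RefSeq window of 250 bases before to 50 after the start, and 17 of the 68 (25.0%) held the NRF1 motif on either strand, compared with 7.17% of 17492 protein-coding genes. The YY1 motif AANATGGCG was in 10 (14.7%, compared with 3.64%), the cyclic AMP response element TGACGTCA in 4 (5.88%, compared with 2.54%), the ETS motif CCGGAAGT in 5 (7.35%, compared with 5.69%) and the ERR motif TCAAGGTCA in 2 (2.94%, compared with 0.377%). The core elements TATAAA and CCAAT were in 11.8% and 44.1%, compared with 14.8% and 42.3%. These shares describe letters in a window and were not matched for base composition. Members with the NRF1 motif had a median log2 fold change of 0.18 against sham control (13 of 17 above 0), and those without had 0.30 (39 of 49 above 0). Against all non-injured libraries the medians were 0.45 with the motif (15 of 17 above 0) and 0.46 without (44 of 49 above 0). The difference between members with and without the motif was not tested.

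As a group the 13 mitochondrially encoded genes were more abundant than the nuclear ones, with a median of 650 CPM per kilobase, compared with 89.3 for the nuclear genes. Against sham control all 13 had a fold above 0, from 0.14 to 0.87, with a median of 0.30 beside 0.09 over all genes tested. Of the 13, 0 passed by edgeR (smallest adjusted p = 0.865), DESeq2 or limma-voom. By edgeR 0 had an unadjusted p under 0.05. Without injured 1 the count above 0 was 10 of 13 and without sham control 2 it was 8 of 13. The medians of the 13 genes were 0.13 and 0.10, beside 0.04 and 0.30 over all genes in those fits. Without sham control 2 they thus stood below all genes. Without injured 2, injured 3 or sham control 1 the medians were 0.18, 0.50 and 0.52, beside 0.06, 0.0 and 0.26 over all genes. Without injured 1 and sham control 1 together all 13 stayed above 0, with a median of 0.38 beside 0.20 over all genes.

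COX3, a core subunit of complex IV, stood at 6089, 3083 and 1335 CPM in injured, at 3801 and 1826 in sham control and at 1386 in uninjured (log2 fold change 0.32 ± 0.76, SE). COX1, the subunit that holds the oxygen-reducing site, stood at 4327, 3636 and 2168 CPM in injured, at 2777 and 2738 in sham control and at 2199 in uninjured (log2 fold change 0.29 ± 0.54, SE). In both, injured 1 was highest and injured 3 lowest, so the sham values lay inside the injured range. COX2 had a fold of 0.30 ± 0.51 (SE).

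Of the complex I genes, ND1 stood at 1396, 975 and 479 CPM in injured, at 919 and 548 in sham control and at 545 in uninjured (log2 fold change 0.37 ± 0.57, SE), and ND3 at 269, 117 and 55.0 CPM in injured, at 95.9 and 64.7 in sham control and at 59.1 in uninjured (0.87 ± 0.68, SE). Injured 3 was the lowest library for both. ND2, ND4, ND4L, ND5 and ND6 had folds of 0.15, 0.22, 0.28, 0.38 and 0.47, and CYTB of complex III had 0.14 ± 0.48 (SE). Of the complex V genes, ATP8 stood at 137, 181 and 139 CPM in injured, at 114 and 129 in sham control and at 109.9 in uninjured, and was the 1 mitochondrially encoded gene without overlap (log2 fold change 0.33 ± 0.35, SE; edgeR adjusted p = 0.929). ATP6, which overlaps ATP8 in the genome, had a fold of 0.26 ± 0.45 (SE). ND4L and ND4 overlap in the same way and ND6 lies on the opposite strand, and nothing used here states whether strand was counted. Annotated transcripts of other genes hold 100% of the 31-base words of COX2, 99.9% of COX3, 99.5% of ATP6, 98.9% of ND4L, 98.1% of ND3, 63.9% of COX1 and 62.8% of ND4, so these counts are uncertain.

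The mitochondrial ribosomal RNAs, made from the same DNA, had folds near 0. mt-Rnr2 stood at 22050, 5460 and 2818 CPM in injured, at 16670 and 5223 in sham control and at 4538 in uninjured, and mt-Rnr1 at 4519, 954 and 358 CPM in injured, at 3115 and 887 in sham control and at 969 in uninjured. Their log2 fold changes were -0.11 ± 1.04 and -0.04 ± 1.08 (SE). Injured 1 and sham control 1 were the high libraries of each group. Counts of both rRNAs were 1.49, 0.441 and 0.413 times the mitochondrially encoded mRNA counts in injured, 1.57 and 0.661 times in sham control and 0.682 times in uninjured.

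Transcript length moved with the differences between libraries of 1 group. For nuclear members under 700 nucleotides, injured 1 exceeded injured 3 by a median of 1.23 in log2(CPM + 1), for those from 700 to below 1500 by 1.09 and for the 14 of 1500 and over by 0.47. Over all genes of known length the medians were 1.06, 0.52 and -0.31, so injured 1 held relatively more of all short transcripts, and respiratory chain genes are mostly short (35, 31 and 14 genes in the bands). Between sham control 1 and 2 the medians of members were 0.08, 0.48 and 0.40. The fold changes of injured against sham control had medians of 0.23, 0.32 and 0.40 in the 3 bands, beside 0.13, 0.17 and 0.04 over all genes of the same lengths. The part of transcript length in the fold changes was not tested.

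**Figure D5:**
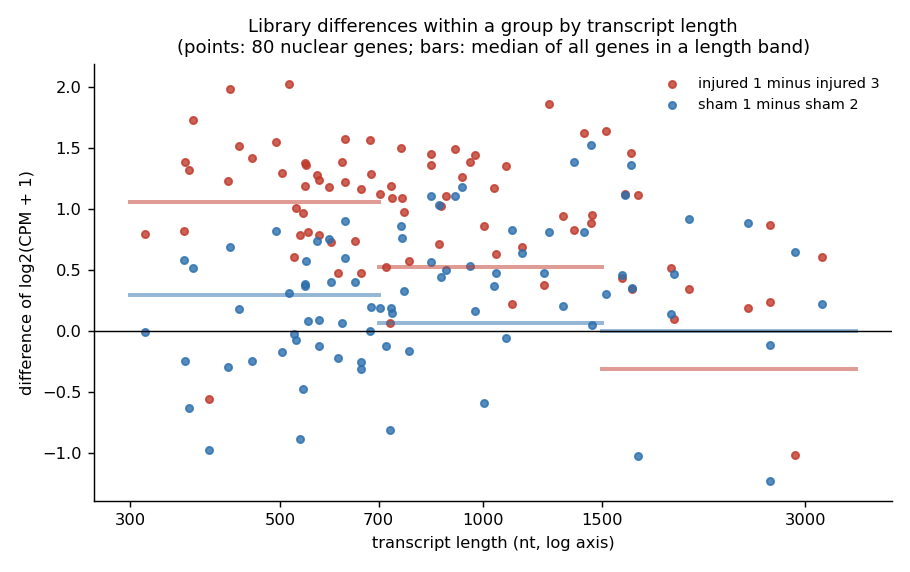
Points are the 80 nuclear genes, placed by transcript length (log axis) and by the difference of log2(CPM + 1) between injured 1 and injured 3 (red) or sham control 1 and sham control 2 (blue), and the bars are medians of all genes in a length band. Red points lie mostly above 0, and the red bars run from 1.06 for the shortest to -0.31 for the longest genes.

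The second comparison set injured cells against all 3 non-injured libraries. It shares the injured and sham libraries with the first. Of 79 nuclear genes tested 72 had a fold above 0, with a median of 0.45 beside 0.0032 over all genes. For members under 700 nucleotides, from 700 to below 1500 and of 1500 and over the medians were 0.45, 0.47 and 0.45. Over all genes of the same lengths they were 0.38, 0.24 and -0.07, and the part of transcript length was not tested. By complex the medians of members were 0.38 for I, 0.54 for II, 0.44 for III, 0.57 for IV and 0.54 for V. By edgeR 0 passed (smallest adjusted p = 0.639), where 0% of 14110 genes did, and 1 had an unadjusted p under 0.05 in the higher direction, where 3.71% of all genes did (3.72% lower). That gene was Atp5g1 (log2 fold change 1.01 ± 0.41, SE; edgeR unadjusted p = 0.0423, adjusted p = 0.639), higher in 3 of 3 injured libraries. DESeq2 called 1 member, Cox6a2, where it called 3.32% of all genes, and limma-voom 0. The injured libraries lay wholly above the rest for 7 genes, 1 each of complexes I and II, 2 of IV and 3 of V, where 9.23% of all genes did, and wholly below for 0, where 7.07% did.

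The median stayed above 0 without any 1 library. It was 0.16 without injured 1, with 58 of 79 genes above 0, and 0.27 without uninjured, the library lowest for most members. Without injured 1 and sham control 1 together it was 0.37, with 68 of 79 above 0. The 13 mitochondrially encoded genes had a median of 0.39 with all above 0, and 0 passed (smallest adjusted p = 0.81). Without injured 1, injured 2 or injured 3 their medians were 0.23, 0.25 and 0.60, and without injured 1 and sham control 1 together 0.42. The difference between the 2 comparisons was not tested.

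Other genes of the pathway were read from lists of assembly factors, electron carriers, mitochondrial genome functions and biogenesis regulators. In each list 0 members passed by edgeR in either comparison. Against sham control 53.7% of all genes tested had a fold above 0, with a median of 0.09. Of 51 assembly factors tested 33 had a fold above 0 against sham control (64.7%), with a median of 0.33. The injured libraries lay wholly above sham control for 7 and wholly below for 1, where 11.9% and 9.12% of all genes did. Cox18, which inserts part of COX2 into the membrane, stood at 16.7, 19.4 and 16.6 CPM in injured, at 5.46 and 8.09 in sham control and at 7.60 in uninjured, with no overlap (log2 fold change 1.37 ± 0.74, SE; edgeR adjusted p = 0.865). DESeq2 called it against all non-injured libraries (adjusted p = 0.0193). Tmem70, an assembly factor of ATP synthase, stood at 32.0, 31.8 and 35.2 CPM in injured, at 21.4 and 11.1 in sham control and at 19.4 in uninjured (log2 fold change 1.02 ± 0.54, SE), and Ecsit had a fold of 1.13 ± 0.67 (SE). Coa5, whose groups overlapped, stood at 20.3, 47.1 and 50.9 CPM in injured, at 26.1 and 7.65 in sham control and at 55.5 in uninjured.

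Of 17 electron carrier genes tested 12 were above 0 (70.6%), with a median of 0.26. Wholly above sham control lay 3 and wholly below 1, where 11.9% and 9.12% of all genes did. Cytochrome c (Cycs), the mobile carrier between complexes III and IV, stood at 182, 141 and 111 CPM in injured, at 60.1 and 95.8 in sham control and at 72.5 in uninjured, with no overlap (log2 fold change 0.89 ± 0.42, SE; edgeR adjusted p = 0.865). Coq9, of ubiquinone synthesis, stood at 100.7, 47.3 and 40.6 CPM in injured, at 33.4 and 29.2 in sham control and at 20.3 in uninjured (log2 fold change 1.01 ± 0.54, SE). Coq7 had a fold of 0.90 ± 0.64 (SE) and Coq5, a methyltransferase of the same pathway, one of -0.79 ± 0.48 (SE) with all injured libraries below the rest. Against all non-injured libraries Cycs and Coq9 had unadjusted p of 0.0271 and 0.0356 by edgeR (adjusted p = 0.566 and 0.608).

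Of 20 genes for transcription and upkeep of mitochondrial DNA 12 were above 0 (60.0%), with a median of 0.37. Wholly above sham control lay 5 and wholly below 1, where 11.9% and 9.12% of all genes did. With uninjured added to the sham controls these counts were 1 and 0. The 4 with the smallest p against sham control were Polg2, Ssbp1, Supv3l1 and Elac2. Their folds were 1.93 ± 1.48, 0.90 ± 0.66, 1.15 ± 0.84 and 1.71 ± 1.07 (SE). Polg2 overlapped between injured and sham control. Elac2 stood at 33.2, 20.4 and 24.2 CPM in injured, at 14.9 and 0.994 in sham control and at 32.1 in uninjured. Of 15 regulators of biogenesis tested 8 were above 0 (53.3%), with a median of 0.01. Wholly above sham control lay 1 and wholly below 1, where 11.9% and 9.12% of all genes did. Sirt3, the mitochondrial deacetylase, stood at 5.55, 7.33 and 6.47 CPM in injured, at 18.3 and 13.9 in sham control and at 13.9 in uninjured, all injured values below all others (log2 fold change -1.32 ± 0.75, SE; edgeR adjusted p = 0.865), and DESeq2 called it against all non-injured libraries (adjusted p = 0.0232). Myc, a growth regulator, stood at 54.9, 71.3 and 122 CPM in injured, at 133 and 116 in sham control and at 107 in uninjured. Ppargc1b and Ppara stayed at or below 1.01 and 2.80 CPM in all libraries. Nrf1 itself, chosen after its values were seen, stood at 15.0, 41.3 and 21.3 CPM in injured, at 28.1 and 23.1 in sham control and at 34.6 in uninjured (log2 fold change 0.01 ± 0.59, SE).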

How the data were processed

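RNA-seq of 6 libraries was read from 1 table of whole-number counts per gene symbol, which the authors deposited and which were taken as raw counts. Tools named in the submitters' processing notes are DESeq, DESeq2 1.22.2 and Salmon 0.12.0, with builds mm9 and GRCm38.p6, all without a role. Nothing used here states how estimates became gene counts.

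Genes were kept by filterByExpr (minimum count of 10), scaled by trimmed mean of M-values (TMM) to CPM and tested with edgeR 4.0.16 (R 4.3.3; quasi-likelihood, Benjamini-Hochberg over all genes, threshold 0.05). The fit against sham control held all 6 libraries in 3 groups (3 residual degrees of freedom), and that against all non-injured libraries held 2 groups (4). Alternatives were other scalings, no filter, DESeq2 1.42.0, limma-voom (limma 3.58.1), leaving libraries out and a replicate block. Scripts were tested on simulated data. Fold changes are log2, and SE derives from the F statistic. Lengths are medians of RefSeq-matched GENCODE M21 transcripts, with a length for 87.9% of all genes tested and 100% of the nuclear members. Promoters are from RefSeq (GRCm38.p6).

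The members and lists were chosen with earlier results of these data known. The genes named are all mitochondrially encoded genes, tissue forms, the Sdh genes, and for each complex the 4 genes of smallest p against sham control and the 2 against all non-injured, with the 4 of smallest p per pathway list. Of the lists not described above, 8 adipocyte markers summed to 22.1 to 477 CPM per library, and 5 surface markers listed as outside the usual gate for these cells, the gate used being unknown, to 0.663 to 297.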

Additional observations from a re-analysis of the deposited data

How the results depend on the processing

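Among members, no alternative but DESeq2 gave an adjusted p under 0.05 (1 gene, Cox6a2, against all non-injured). Over all genes edgeR called 0 in both comparisons, DESeq2 434 against sham control and 489 against all non-injured, limma-voom 1 and 7, and edgeR without a filter 3 and 5. Nuclear members higher at an unadjusted p, 0 and 1, became 2 and 5 with library size scaling, 2 and 2 with limma-voom and 2 and 0 without injured 1 and sham control 1 together, an alternative chosen after seeing the data. They became 1 with DESeq2 and 1 without the uninjured library in the fit against sham control, and 0 with relative log expression scaling and 2 without a filter against all non-injured. Those wholly above, 8 and 7, became 14 and 13 with library size scaling and 24 and 21 without injured 1 and sham control 1, and those wholly below became 10 and 2 there. Fewer libraries make non-overlap easier. Shares of all genes at an unadjusted p or without overlap were taken only in the main fits. Such counts under the alternatives, here and below, therefore cannot be set against all genes. Leaving out 1 library at a time, counts ranged from 0 to 2 and 0 to 7 at an unadjusted p, from 8 to 47 and 7 to 46 wholly above (highest without injured 3) and from 0 to 9 and 0 to 3 wholly below, and the median fold of nuclear members from -0.06 to 0.49 and 0.16 to 0.66.

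Single folds were followed under the alternatives only for the 63 genes picked by the naming rule above. Other members changed sign too. Against sham control 64 of 80 nuclear members were above 0, and 58 with relative log expression scaling or DESeq2. Among the 63, Cox6b2 changed sign against sham control with library size scaling (0.02), cause not tested here or below. Without injured 1 and sham control 1, Cox7b (-0.08), Sdha (0.09), Ndufs4 (-0.02) and Uqcrb (-0.14) did so against sham control. Without the same libraries Cox4i1 (-0.01), Cox4i2 (-0.04), mt-Rnr2 (-0.24) and mt-Rnr1 (-0.50) did so against all non-injured. In that comparison Cox4i1 was -0.0039 with relative log expression scaling and -0.0047 with DESeq2. There limma-voom gave -0.0014 for ND2, -0.07 for mt-Rnr2 and -0.27 for mt-Rnr1. The ranges that follow cover the same 63 genes only, and more members crossed 0. Without injured 1, 45 of 80 nuclear members were below 0 against sham control, compared with 16 with all libraries. In complex V it was 6 of 17, compared with 0. Leaving out 1 library at a time, ranges that crossed 0 against sham control were -0.01 to 0.79 for ND1, -0.11 to 0.47 for ND2, -0.02 to 0.50 for ND4, -0.23 to 1.07 for ND4L, -0.35 to 0.94 for COX3, -0.15 to 0.36 for CYTB, -0.0076 to 0.62 for Cox6b1, -0.07 to 0.62 for Uqcrh, -0.03 to 0.87 for Uqcrb, -0.97 to 0.62 for Cox6b2, -0.71 to 0.30 for Cox4i1, -0.67 to 0.17 for Cox4i2, -2.25 to 0.07 for Cox7a1, -1.40 to 0.95 for mt-Rnr2 and -1.61 to 1.13 for mt-Rnr1. Against all non-injured they were -0.13 to 0.33 for ND2, -0.08 to 1.12 for COX3, -0.06 to 0.41 for CYTB, -0.46 to 0.51 for Cox4i1, -0.31 to 0.81 for Cox4i2, -0.38 to 1.62 for Cox6b2, -1.91 to 0.14 for Cox7a1, -1.09 to 1.05 for mt-Rnr2, -1.34 to 1.07 for mt-Rnr1 and -0.05 to 1.21 for Coa5.

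Injured 1 and 2 and sham control 1 and 2 share replicate numbers, but nothing says that a number marks a shared animal or day, and the differences of replicate 1 and 2 correlated at 0.241 over 16752 genes with 2 pairs. With the replicate number as a block 0 members and 0 genes passed, and 2 nuclear members were higher at an unadjusted p. Over these 4 libraries 47 nuclear members lay wholly above, a count for which the share of all genes was not taken. The median fold of nuclear members was 0.50, beside 0.09 over all genes. Cox4i1, Cox6b2, mt-Rnr2 and mt-Rnr1 turned to 0.05, 0.13, 0.21 and 0.30. Sdhd, Cox6a2, Cox7a1, Cox8b and Cox6b2 had at most 6.70 CPM in any library, and without molecular identifiers the number of molecules sampled from 150 pg of RNA is unknown for all members.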
